A study of Homo sapiens with 8 samples.

Results

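The genes described here encode the core of activator protein-1 (AP-1), the dimeric transcription factor whose subunits carry a basic region that contacts DNA and a leucine zipper that joins the partners. They are the 10 genes FOS, FOSB, FOSL1, FOSL2, JUN, JUNB, JUND, ATF3, BATF and BATF3, taken by name from 20162 protein-coding genes of the GENCODE annotation on hg19, and all 10 were found. For each gene, the peaks of the histone marks H3K23su (succinylation of histone H3 lysine 23) and H3K27ac (acetylation of histone H3 lysine 27) were read within 2 kb of the transcription start site (TSS), in the gene body and within 100 kb on either side of the gene.

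FOS proteins cannot pair with each other and bind DNA as partners of JUN proteins, whereas JUN proteins can also pair among themselves. The dimers recognise a palindrome of 7 bases, TGACTCA on one strand and TGAGTCA on the other, called the AP-1 core below, and pairs that contain ATF subunits prefer the cyclic AMP response element (CRE), TGACGTCA. Several of the genes are immediate early genes, whose transcription starts within minutes of a mitogen or stress signal through kinases that act on factors already bound at their promoters. H3K27ac marks active promoters and enhancers, and H3K23su is a related acylation of the same histone tail.

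The material was the established colorectal cancer line HCT15, of human origin, in its parental form (HCT15-Pa, labelled as treated with DMSO, the solvent) and in a form that resists the pyrimidine analog 5-fluorouracil (HCT15-FR, labelled as treated with 5-FU at 20 μg/ml). Each mark was profiled by CUT&Tag, in which an antibody directs a transposase to chromatin, in 2 libraries per line, which makes 8 libraries in all. The methods state that HCT15-FR cells were kept in the drug and moved to drug-free medium before experiments, so the lines differ both in selection history and in exposure, and these cannot be told apart. Both lines are single cell populations, and no source says whether the replicates came from separate cultures, so the spread between them may be technical.

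The deposited lists hold peaks and their scores, not reads, so the depth behind a peak is unknown. By the study's own sequencing summary, HCT15-Pa replicate 2 was the shallowest of the H3K23su libraries, and the values of each library are given so that it can be read apart. Where a library has no peak, the mark was below what its list could show. The H3K23su lists held between 65364 and 68365 peaks and the H3K27ac lists between 70600 and 76676. Peaks were wider in HCT15-FR, with 33.0 and 33.5 Mb covered by H3K23su in HCT15-Pa against 39.4 and 40.0 Mb in HCT15-FR, and 38.8 and 39.5 Mb against 46.3 and 46.6 Mb for H3K27ac. Counts of the genes with more covered length in one line are therefore given beside the share of all genes with the same pattern. The epithelial markers EPCAM, CDH1, KRT8, KRT18, CDX2 and VIL1 fitted the label, with a peak near the TSS in all 4 libraries for 5 of 6 genes in H3K23su and 6 of 6 in H3K27ac. Of 4 markers of other cell types that could be placed, 3 had no peak near the TSS in any library of either mark, and the exception was COL1A1, a collagen gene.

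The genes lie on 5 chromosomes, and all coordinates are on hg19. FOS is at chr14:75745529-75748933 and BATF at chr14:75988798-76013336, both on the plus strand. FOSB is at chr19:45971253-45978437 and JUNB at chr19:12902300-12904129 on the plus strand, and JUND at chr19:18390504-18392432 on the minus strand. FOSL1 is at chr11:65659520-65668044 on the minus strand and FOSL2 at chr2:28615315-28640184 on the plus strand. JUN is at chr1:59242517-59249720 and BATF3 at chr1:212859759-212873182 on the minus strand, and ATF3 at chr1:212738676-212794119 on the plus strand. JUN, JUNB and JUND each have 1 exon in the canonical transcript. The regions searched around ATF3 and BATF3 share 134361 bp, because the 2 TSSs are 91079 bp apart, and the other pairs share none.

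The promoters shown are those of the 7 genes whose peak-covered length near the TSS did not overlap between the lines in at least 1 mark. The share of all genes that meet this rule was not computed, so it serves only to choose what is shown. These promoters are printed because AP-1 and CRE-binding factors act through short sites in such sequences. The search for those sites is read from them. Each runs 5′ to 3′ along the gene from 220 bases before the TSS to its base 28, except FOSL1, which runs from 20 bases before the TSS to its base 10. Capitals mark the AP-1 core, the CRE and the CRE half-site, TGACGT or ACGTCA, searched on both strands, and BATF held none of them.
FOS (chr14:75745311-75745558, plus strand): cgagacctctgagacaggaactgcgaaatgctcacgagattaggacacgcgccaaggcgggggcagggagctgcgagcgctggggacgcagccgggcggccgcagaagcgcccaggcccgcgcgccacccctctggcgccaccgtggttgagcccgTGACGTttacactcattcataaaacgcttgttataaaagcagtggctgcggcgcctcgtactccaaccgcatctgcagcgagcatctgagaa
FOSB (chr19:45971034-45971281, plus strand): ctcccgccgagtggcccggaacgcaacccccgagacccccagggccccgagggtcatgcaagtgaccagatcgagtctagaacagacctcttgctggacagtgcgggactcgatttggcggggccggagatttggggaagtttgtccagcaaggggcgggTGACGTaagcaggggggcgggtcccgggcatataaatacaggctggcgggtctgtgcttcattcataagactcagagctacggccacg
FOSL1 (chr11:65667850-65667879, minus strand): agactccgcacggcgcgggTGAGTCAgaac
FOSL2 (chr2:28615505-28615752, plus strand): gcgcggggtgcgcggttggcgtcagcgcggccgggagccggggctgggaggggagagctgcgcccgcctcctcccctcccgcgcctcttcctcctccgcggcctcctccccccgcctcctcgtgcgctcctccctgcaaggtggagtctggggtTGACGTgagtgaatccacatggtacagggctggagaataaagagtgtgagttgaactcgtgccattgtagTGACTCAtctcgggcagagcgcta
JUND (chr19:18392405-18392652, minus strand): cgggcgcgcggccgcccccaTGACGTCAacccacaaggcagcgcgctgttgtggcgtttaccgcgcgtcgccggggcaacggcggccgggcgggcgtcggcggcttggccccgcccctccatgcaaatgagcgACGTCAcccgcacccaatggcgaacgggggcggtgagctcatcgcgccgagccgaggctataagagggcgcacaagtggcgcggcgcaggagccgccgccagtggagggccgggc
ATF3 (chr1:212781883-212782130, plus strand): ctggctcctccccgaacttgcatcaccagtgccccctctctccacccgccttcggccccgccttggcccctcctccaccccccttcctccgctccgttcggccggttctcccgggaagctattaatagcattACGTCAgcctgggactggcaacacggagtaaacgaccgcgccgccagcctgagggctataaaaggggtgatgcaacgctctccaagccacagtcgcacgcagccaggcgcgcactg
BATF (chr14:75988592-75988839, plus strand): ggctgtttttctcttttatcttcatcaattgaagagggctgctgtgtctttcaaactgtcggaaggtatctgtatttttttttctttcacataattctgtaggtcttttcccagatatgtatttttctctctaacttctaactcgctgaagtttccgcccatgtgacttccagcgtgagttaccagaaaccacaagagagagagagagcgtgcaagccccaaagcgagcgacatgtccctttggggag

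FOSL1 and FOSL2, the FOS relatives also called FRA-1 and FRA-2, carried an exact AP-1 core over or just past their own TSS. In FOSL1 it ran from base -1 to base 6, and in FOSL2 from base 5 to base 11, where base 1 is the TSS and base -1 the base before it. The core was present in 3.57% of the promoters of all 20162 genes, read from 250 bases before to 50 after the TSS. JUND held a full CRE from base -200 to base -193, a motif found in 2.68% of all promoters. The half-site is part of the full CRE, so the 2 searches overlap. It was found in 6 of the 10 promoters, against 9.47% of all promoters, at base -64 in FOS, base -60 in FOSB, base -66 in FOSL2, base -88 in ATF3, bases -200, -198 and -87 in JUND and base -243 in FOSL1. The search for the half-site was added after these letters were seen. No CArG box, the site of serum response factor, was found in these windows of the 10 genes, and 1.20% of all promoters held one. The windows are short, and a CArG box outside that of FOS lay in the shared H3K23su region that spans its TSS, chr14:75744947-75745910.

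Near the TSS, H3K23su covered more sequence in both HCT15-FR libraries than in both HCT15-Pa libraries for 6 of the 10 genes, namely FOSB, FOSL1, FOSL2, JUND, ATF3 and BATF. This pattern was found in 28.7% of all genes, 5778 of 20162, in which peaks were also wider in HCT15-FR. Genes without a peak near the TSS cannot show it, and 13421 genes had one in at least 1 library, as did 9 of the 10. The reverse pattern was found in FOS alone, against 5.57% of all genes. A peak was present in all 4 H3K23su libraries for 8 of the 10, the exceptions being JUNB and BATF3, against 54.7% of all genes. Summed over the 10 genes, the covered length was 1.52 times as great in HCT15-FR, against 1.20 times over all genes. ATF3 and JUND differed most, by 1333.5 and 904 bp in the mean, and weigh heavily in that sum. Over the 9 genes with a peak the median difference was 252.5 bp, against 148.5 bp over all genes with one. The exact permutation test of 2 libraries against 2 cannot give a p below 0.333, so each of these is a description of the libraries.

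For H3K27ac, both HCT15-FR libraries had more covered length near the TSS in 3 genes, FOS, JUND and ATF3, against 23.1% of all genes. That share was 4652 of 20162 genes, of which 14828 had a peak in at least 1 library, as did all 10. FOSB alone had the reverse pattern, which 9.42% of all genes shared. A peak was present in all 4 libraries for 9 of the 10, with BATF3 the exception, against 59.0% of all genes. The summed length of the 10 genes was 1.18 times as great in HCT15-FR, against 1.06 times over all genes. ATF3, JUND and FOS differed most, by 1154.5, 812.5 and 708 bp in the mean, and weigh heavily in that sum. The median difference was 64 bp, against 59.5 bp over all genes with a peak. JUND and ATF3 were the 2 genes with more of both marks near the TSS in both HCT15-FR libraries. The share of all genes with this pattern in both marks was not computed, so this only describes the 2 genes. Divided by the total covered length of its library, H3K23su was higher in both HCT15-FR libraries for 4 genes, against 14.1% of all genes, and in both HCT15-Pa libraries for 1, against 17.3%. On that scale H3K27ac was higher in HCT15-FR for 3 genes, against 8.03% of all genes, and in HCT15-Pa for 5, against 30.2%.

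**Figure D1:**
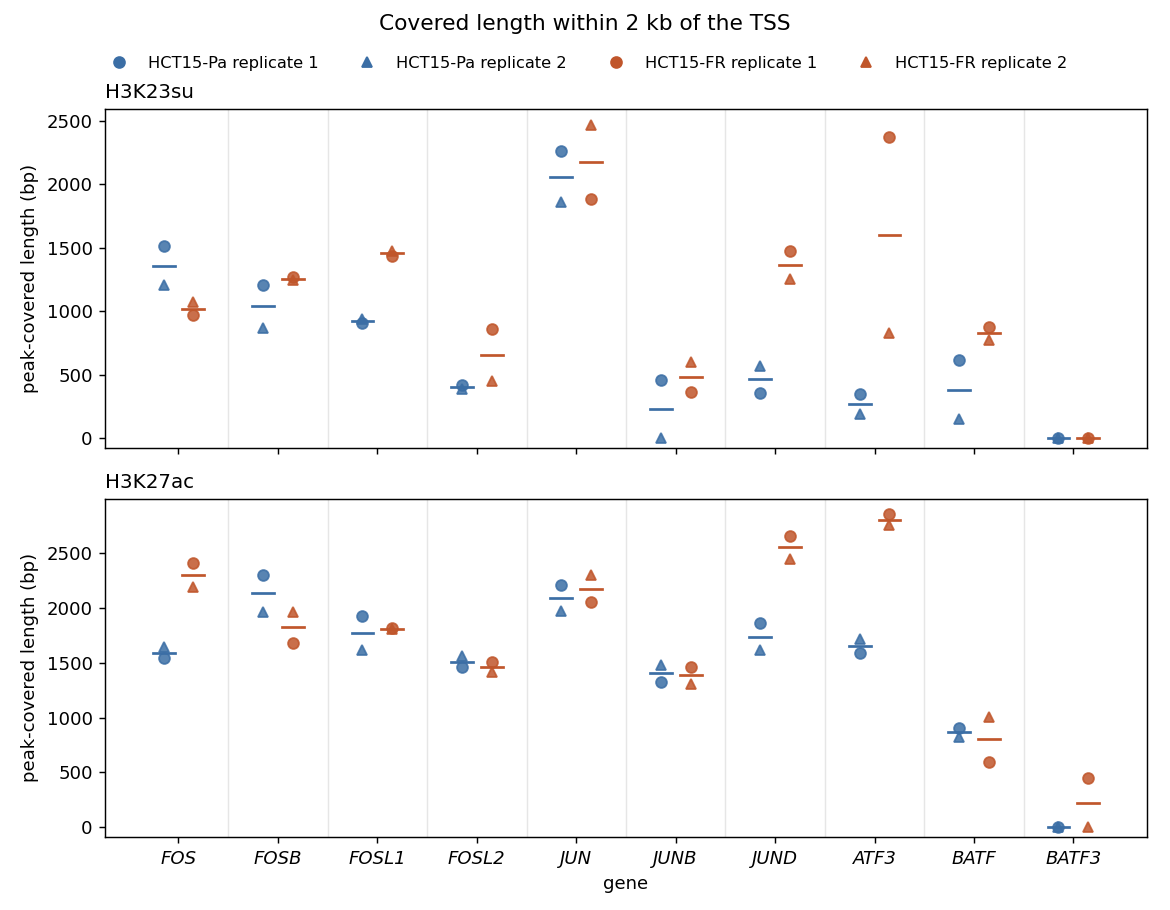
Peak-covered length in bp within 2 kb of the TSS of the 10 AP-1 genes, for H3K23su (top) and H3K27ac (bottom), with 1 point per library and bars at the mean of 2 libraries. ATF3 and JUND lie higher in HCT15-FR in both marks, whereas FOS is lower in H3K23su and higher in H3K27ac.

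FOS, the founding partner of JUN and an immediate early gene, had less H3K23su and more H3K27ac near the TSS in both HCT15-FR libraries. H3K23su covered 1512 and 1204 bp in the HCT15-Pa libraries and 966 and 1070 bp in the HCT15-FR libraries. Both HCT15-Pa values were above both HCT15-FR values, with a ratio of 0.75 (mean 1358 ± 218 against 1018 ± 73.5 bp, SD, n = 2 each, exact permutation p = 0.333). The peak over the TSS ran from -584 to 379 and from -417 to 224 in HCT15-Pa, as distances in bp from the TSS. In HCT15-FR it ran from -59 to 211 in replicate 1, and in replicate 2 it ended at -132, before the TSS. With the stronger 50% of the peaks of each list, the difference in mean H3K23su length, -340 bp with all peaks, turned to 61.5 bp, which has the same sign as that of H3K27ac. A second peak farther upstream, between -1656 and -909, was present in all 4 libraries. H3K27ac covered 1541 and 1638 bp in HCT15-Pa and 2411 and 2184 bp in HCT15-FR, a ratio of 1.45 (exact permutation p = 0.333). In HCT15-Pa the acetylation formed 2 peaks with a gap between them, and in each HCT15-FR library 1 peak bridged that gap. The half-site at base -64 lay inside the peak over the TSS in both HCT15-Pa H3K23su libraries. In HCT15-FR the peak of replicate 1 began at the last base of the half-site, and no peak of replicate 2 reached it.

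FOSB, the paralog that is induced with FOS, had the reverse order in each mark. H3K23su covered 1208 and 868 bp in HCT15-Pa and 1268 and 1246 bp in HCT15-FR, so both HCT15-FR values were higher, the nearest pair being 1208 and 1246 bp, and with the stronger 50% of the peaks of each list the difference in means turned from 219 to -460.5 bp. None of the H3K23su peaks covered the TSS, and the first began 297 bp or more past it. H3K27ac covered 2297 and 1965 bp in HCT15-Pa and 1681 and 1963 bp in HCT15-FR. Here the lines were separated by 2 bp, 1965 against 1963 bp, which is far below the spread between replicates (2131 ± 235 against 1822 ± 199 bp, SD, n = 2 each). The score rank of the best peak did not separate the lines in either mark.

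FOSL1 had the widest difference in peak rank near the TSS among the 10 genes. The score of a peak is the -log10 of its P value, and its rank is the percentage of the peaks in the same list that score no higher. The rank puts the libraries on a common scale, but it depends on how many weak peaks each list holds. Whether it makes libraries of different strength comparable was not tested. The FOSL1 promoter peak of H3K23su scored 4.09 and 4.20 in HCT15-Pa, at ranks of 39.6 and 43.5, and 7.63 and 8.53 in HCT15-FR, at ranks of 90.2 and 93.7. The mean rank was 50.4 points higher in HCT15-FR, and 0.290% of the 11021 genes with a peak near the TSS in all 4 libraries had a rise at least as great. The peak also covered more sequence, 907 and 941 bp against 1438 and 1478 bp, a ratio of 1.58 (924 ± 24.0 against 1458 ± 28.3 bp, SD, n = 2 each, exact permutation p = 0.333). In HCT15-Pa replicate 1 it began at 277, past the TSS and the AP-1 core, and in the other 3 libraries it covered both. H3K27ac at the same place was strong in every library, with ranks of 97.1 and 97.7 in HCT15-Pa and 98.9 and 98.2 in HCT15-FR, and its length overlapped between the lines at 1921 and 1616 bp against 1817 and 1803 bp.

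At FOSL2, length and rank went opposite ways. H3K23su near the TSS covered 417 and 388 bp in HCT15-Pa and 863 and 447 bp in HCT15-FR, while the rank of its best peak was 47.7 and 68.6 in HCT15-Pa and 40.3 and 20.5 in HCT15-FR. The 2 measures separated the lines in opposite directions, but the best peaks lay at different places. They ran from -184 to -39 and from 1613 to 2844 in HCT15-Pa, and from 865 to 1010 and from -276 to 170 in HCT15-FR. The ranks therefore do not compare the same peak between the lines. The difference in mean length turned from 252.5 to -194 bp with the stronger 50% of the peaks of each list. The short peak that reached over the TSS and the AP-1 core was present in both HCT15-FR libraries, from -215 to 172 and from -276 to 170. In HCT15-Pa, replicate 1 had a peak of 146 bp that ended at -39 and replicate 2 had none there. H3K27ac over this TSS had ranks of 96.1 and 91.0 in HCT15-Pa and 84.5 and 84.3 in HCT15-FR, and its length overlapped between the lines at 1456 and 1564 bp against 1502 and 1418 bp.

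JUN, which encodes the partner common to most AP-1 dimers, had the longest H3K23su stretch near the TSS among the 10 genes. The H3K23su length near its TSS was 2259 and 1864 bp in HCT15-Pa and 1885 and 2469 bp in HCT15-FR, and its mean of 2119 bp over the 4 libraries lay at percentile 99.3 of all genes. The lengths of the lines overlapped, but the rank of the best peak did not, at 57.6 and 66.4 in HCT15-Pa and 77.3 and 72.8 in HCT15-FR. H3K27ac covered 2206 and 1970 bp against 2053 and 2296 bp, also overlapping, with ranks between 94.0 and 96.1.

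JUNB, a JUN paralog that acts as the weaker activator, had H3K23su lengths of 457 and 0 bp in HCT15-Pa and 360 and 597 bp in HCT15-FR. The values overlapped, and HCT15-Pa replicate 2 had no H3K23su peak within 2 kb. H3K27ac was present in every library at 1326 and 1479 bp against 1462 and 1309 bp, and the lines overlapped there too.

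JUND, the JUN paralog that is expressed in resting cells, had more of both marks near the TSS in HCT15-FR. H3K23su covered 357 and 565 bp in HCT15-Pa and 1475 and 1255 bp in HCT15-FR, a ratio of 2.96 (461 ± 147 against 1365 ± 156 bp, SD, n = 2 each, exact permutation p = 0.333). The added length came partly from a peak inside the single exon, chr19:18391967-18392288, that both HCT15-FR libraries had and neither HCT15-Pa library had. The flanking peaks were also longer in HCT15-FR, and HCT15-Pa replicate 1 had no peak on the upstream side. H3K27ac covered 1864 and 1611 bp in HCT15-Pa and 2657 and 2443 bp in HCT15-FR, a ratio of 1.47. The acetylation peak crossed the TSS in both HCT15-FR libraries and ended at 470 and 482, and in HCT15-Pa it ended at 249 in replicate 1 and at -26 in replicate 2. The ranks of the best peaks did not follow, with H3K23su ranks of 49.2 and 68.6 against 62.1 and 53.4 and H3K27ac ranks of 82.0 and 82.6 against 79.4 and 78.9.

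ATF3, a stress-induced subunit that binds CRE-like sites and often represses, had the widest ratio of H3K23su length near the TSS. The length was 343 and 188 bp in HCT15-Pa and 2370 and 828 bp in HCT15-FR, a ratio of 6.02 (266 ± 110 against 1599 ± 1090 bp, SD, n = 2 each, exact permutation p = 0.333). The lines did not overlap, but the HCT15-FR libraries differed widely from each other. Replicate 1 had 1 peak from -903 to 902, and replicate 2 had 2 short peaks in the same stretch. Both HCT15-FR libraries also had a peak at the edge of the window, chr1:212780033-212780666, with its midpoint 1753 bp before the TSS, where neither HCT15-Pa library had one. H3K27ac covered 1584 and 1713 bp in HCT15-Pa and 2851 and 2755 bp in HCT15-FR, a ratio of 1.70 (exact permutation p = 0.333). The acetylation began at -902 and -939 in HCT15-Pa and at -2010 and -1914 in HCT15-FR, so it reached the same upstream stretch in HCT15-FR only. The rank of the best peak went the other way in H3K27ac, at 88.6 and 88.2 against 80.5 and 82.9, and overlapped in H3K23su at 92.1 and 69.2 against 47.0 and 72.4. These values are those of the canonical TSS, at base 212782103, and ATF3 has other starts. With the stronger 50% of the peaks of each list, the difference in mean H3K23su length turned to -133 bp. At the 5′ end of the gene record the difference in mean length was -189 bp for H3K23su and -89.5 bp for H3K27ac.

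BATF and BATF3 encode small subunits that lack an activation domain and are best known in lymphocytes and dendritic cells. H3K23su near the BATF TSS covered 613 and 146 bp in HCT15-Pa and 875 and 776 bp in HCT15-FR, so both HCT15-FR values were higher (380 ± 330 against 826 ± 70.0 bp, SD, n = 2 each, exact permutation p = 0.333). The peak lay between -1451 and -417 in 3 libraries, and HCT15-Pa replicate 2 had instead 1 peak of 146 bp just past the TSS. H3K27ac over the same upstream stretch had ranks of 83.0 and 92.5 in HCT15-Pa and 74.0 and 58.8 in HCT15-FR. BATF3 had no H3K23su peak near the TSS in any library, and 1 library, HCT15-FR replicate 1, had an H3K27ac peak there, of 452 bp.

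**Figure D2:**
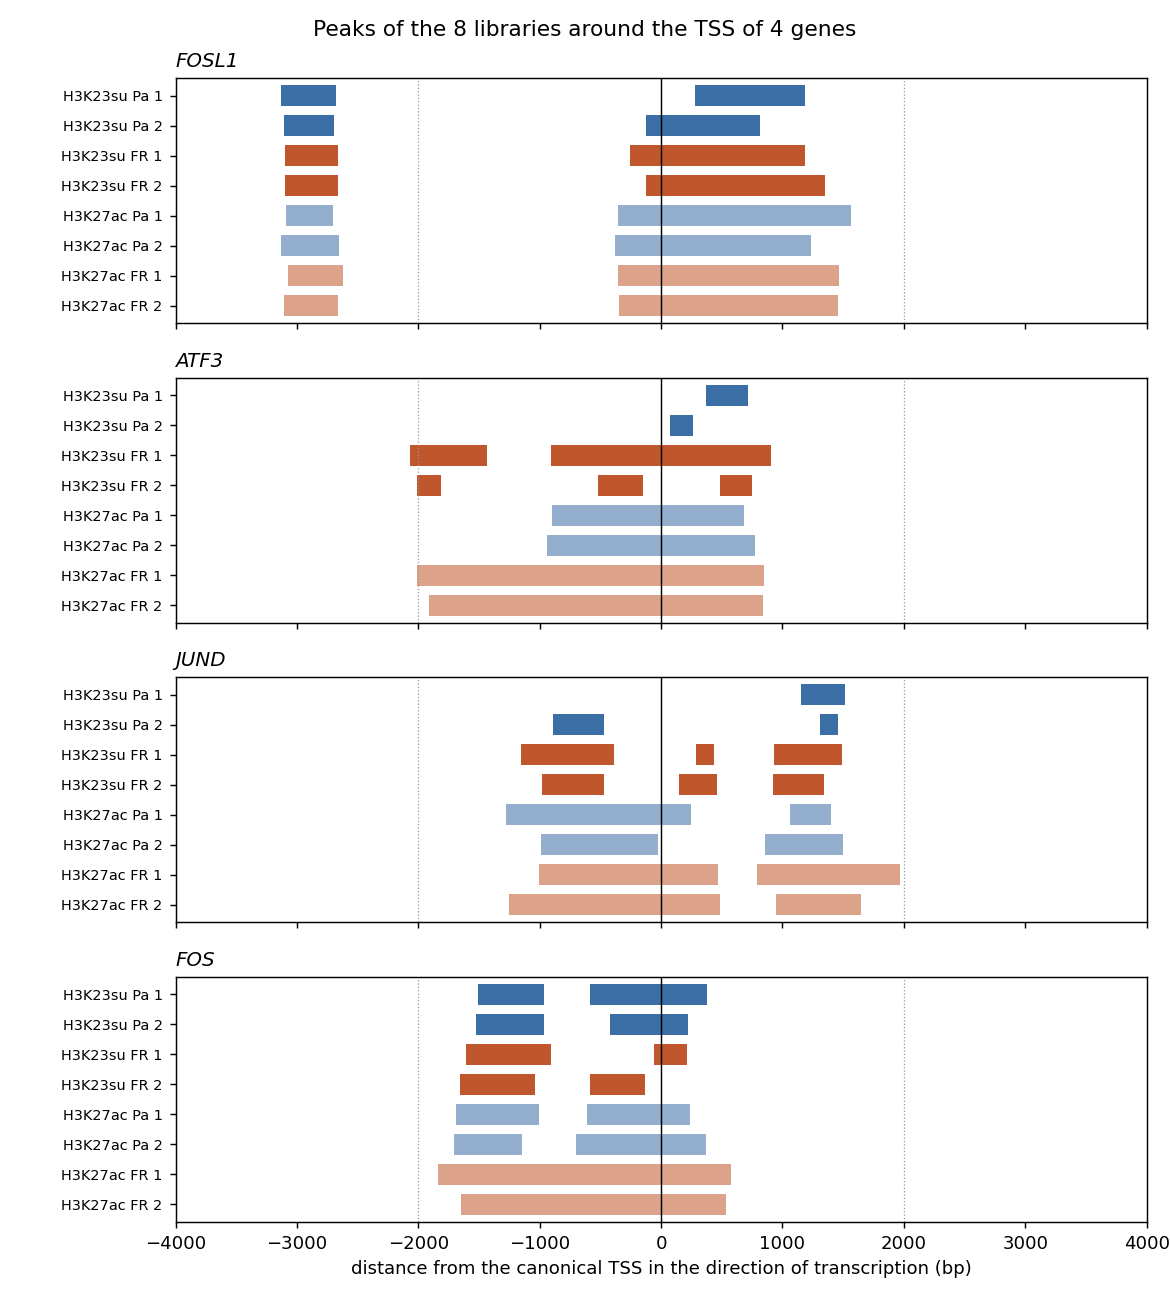
Peaks of the 8 libraries (rows) from 4 kb before to 4 kb after the canonical TSS of FOSL1, ATF3, JUND and FOS, with blue for HCT15-Pa, orange for HCT15-FR, pale shades for H3K27ac and dotted lines at the edges of the 2 kb window. The 4 genes were chosen after their values were seen, and the H3K27ac peaks of ATF3 and FOS extend farther upstream or merge in HCT15-FR.

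Counted by rank instead of length, fewer of the genes were higher in HCT15-FR. The rank of the best H3K23su peak near the TSS was higher in both HCT15-FR libraries for 2 genes, FOSL1 and JUN, against 18.7% of all genes, and higher in both HCT15-Pa libraries for FOSL2, against 10.6%. For H3K27ac the same 2 genes were higher in HCT15-FR, against 15.3% of all genes, and 5 genes, FOS, FOSL2, JUND, ATF3 and BATF, were higher in HCT15-Pa, against 19.8%. FOS, JUND and ATF3 thus had longer acetylated stretches in HCT15-FR with a best peak of lower rank. Whether peak width alone accounts for the length was not tested.

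**Figure D3:**
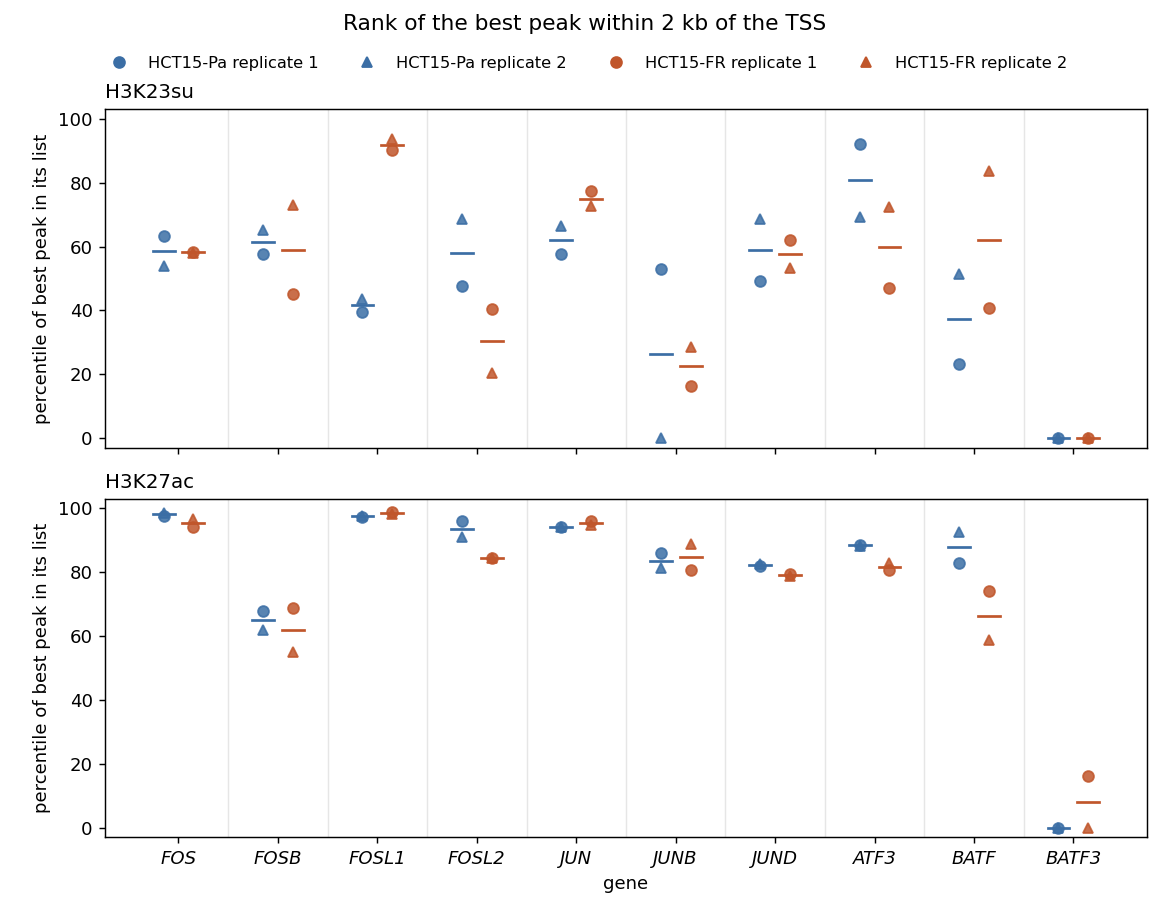
Rank of the best peak within 2 kb of the TSS, as the percentage of peaks in the same list that score no higher, with 1 point per library, bars at the mean of 2 libraries, and 0 where a library had no peak. FOSL1 has the largest gap between the lines in H3K23su, from ranks of 39.6 and 43.5 to 90.2 and 93.7.

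Across the whole stretch from 100 kb before to 100 kb after each gene, called the locus below, H3K23su covered more sequence in both HCT15-FR libraries for 9 of the 10 genes. BATF was the exception, at 8738 and 7817 bp against 8673 and 9058 bp. The loci of ATF3 and BATF3 overlap and hold some of the same peaks, so these genes are not separate cases. The same pattern was found in 54.8% of all genes, and the reverse, which none of the 10 genes had, in 11.8%. The loci of FOSL2, JUND and FOSL1 differed most in bp. FOSL2 had 8224 and 10240 bp in HCT15-Pa and 14952 and 14895 bp in HCT15-FR, a ratio of 1.62. JUND had 8785 and 8240 bp against 13111 and 14614 bp, a ratio of 1.63, and FOSL1 had 7082 and 7914 bp against 12773 and 10950 bp, a ratio of 1.58. Divided by the total covered length of its library, the length was higher in both HCT15-FR libraries for 6 genes, against 30.5% of all genes, and in both HCT15-Pa libraries for 1, against 25.9%.

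H3K27ac covered more of the locus in both HCT15-FR libraries for 8 genes, all but FOSB and BATF, against 54.9% of all genes, and none had the reverse pattern, which 13.4% of all genes had. FOS had the widest ratio, 1.87, with 5830 and 4500 bp in HCT15-Pa and 9632 and 9697 bp in HCT15-FR. ATF3 followed BATF3, whose ratio was 1.63, with 6687 and 7022 bp against 10277 and 11547 bp, a ratio of 1.59. These 2 loci share 134361 bp, so many peaks count for both genes. Downstream of BATF3, where the ATF3 TSS lies, H3K27ac covered 2354 and 3615 bp in HCT15-Pa and 5509 and 6610 bp in HCT15-FR. As a share of the covered length of the library, 3 genes were higher in both HCT15-FR libraries, against 26.1% of all genes, and 2 in both HCT15-Pa libraries, against 33.8%.

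**Figure D4:**
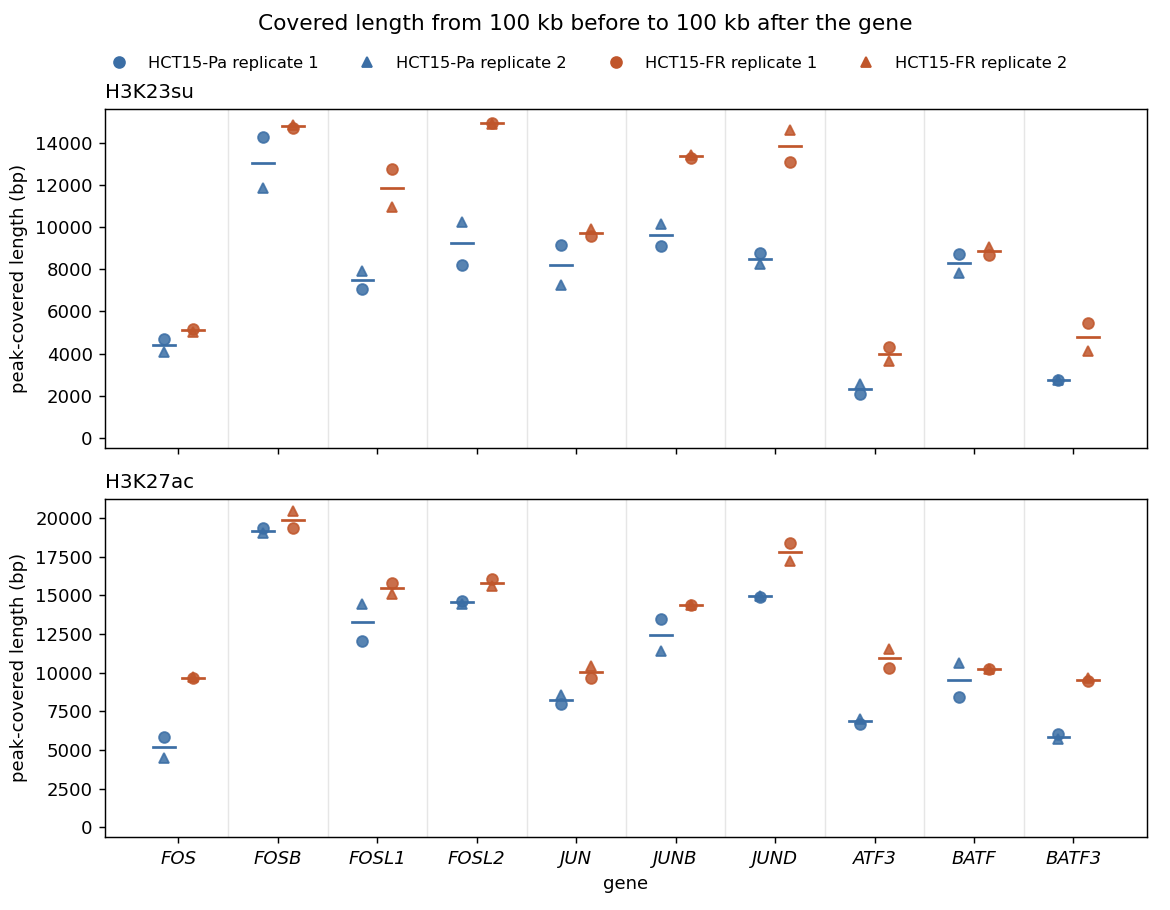
Peak-covered length in bp from 100 kb before to 100 kb after each of the 10 genes, with 1 point per library and bars at the mean of 2 libraries. The H3K23su lengths of FOSL1, FOSL2 and JUND separate the lines most in bp, and the H3K27ac lengths of FOS are 5830 and 4500 bp in HCT15-Pa and 9632 and 9697 bp in HCT15-FR.

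For each mark, overlapping and adjoining peaks were joined across its 4 libraries into regions. A region is called shared where all 4 libraries had a peak, FR-only where a peak was found in both libraries of HCT15-FR and in none of HCT15-Pa, and Pa-only for the reverse. The loci held 206 H3K23su regions, of which 79 were shared, 18 FR-only and 7 Pa-only, and the others were found in 1 library or in mixtures of the lines. They held 244 H3K27ac regions, with 100 shared, 13 FR-only and 8 Pa-only. FR-only regions made up 8.74% of the H3K23su regions in the loci and 7.95% in the genome, and Pa-only regions 3.40% against 5.01%. For H3K27ac both shares were lower in the loci, at 5.33% against 9.08% for FR-only and 3.28% against 4.53% for Pa-only regions. The shared share was greater in the loci than in the genome for both marks, at 38.3% against 23.9% for H3K23su and 41.0% against 25.2% for H3K27ac. At least 1 FR-only H3K23su region lay in the locus of 9 genes, all but FOS, against 63.3% of all genes, and at least 1 Pa-only region in the locus of 5, against 49.8%. For H3K27ac these were 8 genes, against 69.0%, and 5 genes, against 48.9%.

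Where a region was shared, its rank could still differ, a comparison added after the values were seen. Of the 79 shared H3K23su regions in the loci, 29 had a higher rank in both HCT15-FR libraries and 7 in both HCT15-Pa libraries, against 25.4% and 18.5% of the 29230 shared regions of the genome. Of the 100 shared H3K27ac regions, 33 were higher in HCT15-FR and 32 in HCT15-Pa, against 26.4% and 25.5% of 33732. Each H3K23su locus except those of FOSL2 and BATF3 had more regions that ranked higher in HCT15-FR than in HCT15-Pa. FOSL1 and JUNB had 5 of 8 and 5 of 11, each with 1 in the other direction, and JUN had 3 of 6 with none.

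The widest rank difference of any shared region in the loci was downstream of FOS. The H3K23su region chr14:75760560-75761247, of 688 bp, lies between protein-coding genes with its midpoint 15373 bp past the FOS TSS. Its ranks were 22.3 and 24.3 in HCT15-Pa and 91.2 and 93.6 in HCT15-FR, a difference of 69.1 points that 0.0718% of the shared H3K23su regions of the genome reached. A neighbouring H3K23su region centred 16714 bp past the TSS had ranks of 43.6 and 37.1 against 79.3 and 69.6. A single H3K27ac region, chr14:75760407-75762972, spanned both, with ranks of 94.7 and 93.5 in HCT15-Pa and 89.8 and 87.7 in HCT15-FR. Its HCT15-Pa ranks were already near the top of the scale, so a rise as wide as that of H3K23su could not appear. The middle 240 bases of the succinylated region are shown because it had this widest difference, and the lists do not tie it to FOS. The H3K23su length downstream of FOS as a whole overlapped between the lines, at 1134 and 1448 bp against 1577 and 875 bp, and that upstream was longer in HCT15-FR, at 3192 and 2393 bp against 3360 and 4172 bp. The printed bases are rich in G and C, at 70%, and hold no AP-1 core or CRE, and the capitals mark a CArG box, which 1.39% of shared H3K23su regions held within 200 bp of the midpoint.
FOS, 15 kb downstream (chr14:75760784-75761023, plus strand of the genome): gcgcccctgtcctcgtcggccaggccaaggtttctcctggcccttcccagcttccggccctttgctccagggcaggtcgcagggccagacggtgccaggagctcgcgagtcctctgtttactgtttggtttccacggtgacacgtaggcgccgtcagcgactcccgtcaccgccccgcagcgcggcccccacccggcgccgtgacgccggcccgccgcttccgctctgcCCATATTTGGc

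The FOS locus also contained a shared H3K23su region with the reverse order, 44085 bp before the TSS, with ranks of 71.5 and 52.1 in HCT15-Pa and 25.5 and 15.1 in HCT15-FR, and this region held an AP-1 core. The rank of H3K27ac was higher in HCT15-FR at 19636 bp before the TSS, 92.5 and 94.2 against 98.1 and 97.6. That H3K27ac region differed by 4.5 points only.

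In the FOSL2 locus, which had the most added H3K23su length, 3 H3K23su regions were FR-only and none was Pa-only, and 13 others were found in a single library of either line. The strongest lay in an intron of FOSL2, chr2:28631736-28632429, with its midpoint 16358 bp past the TSS and ranks of 74.1 and 83.2 in the 2 HCT15-FR lists. It held 2 copies of the AP-1 core, both more than 200 bp from the midpoint, and lay inside a shared H3K27ac region whose ranks were 84.5 and 88.6 in HCT15-Pa and 92.4 and 94.0 in HCT15-FR. Another lay 32209 bp before the TSS, at ranks of 38.0 and 20.3, overlapping a shared H3K27ac region with ranks of 47.4 and 40.5 in HCT15-Pa and 74.3 and 83.8 in HCT15-FR. Other regions near and in the gene had either order. The shared H3K23su region 2373 bp past the TSS had ranks of 61.5 and 68.6 in HCT15-Pa and 25.9 and 24.3 in HCT15-FR. Its HCT15-Pa replicate 2 peak is the one already given as that library's best near the TSS. A shared H3K27ac region 14238 bp past the TSS had ranks of 48.5 and 74.9 against 19.5 and 9.0. A shared H3K27ac region 2159 bp before the TSS was higher in HCT15-FR, with ranks of 46.5 and 41.9 against 58.0 and 67.7.

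In the JUN locus, both marks had an FR-only region at the same place about 91 kb before the TSS, between genes. The H3K27ac region, chr1:59339962-59341347, had ranks of 93.3 and 94.7 in the HCT15-FR lists, and no other FR-only region of either mark in the loci had a weaker library ranked so high. The H3K23su region within it, chr1:59340319-59341237, had ranks of 58.2 and 52.5. Both HCT15-Pa libraries had no peak there in either mark. A Pa-only H3K23su region, chr1:59228495-59229370, lay 20786 bp past the TSS at ranks of 58.7 and 82.8.

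Other places were also FR-only or Pa-only in both marks. An FR-only pair lay about 90 kb before the ATF3 TSS, with H3K23su ranks of 85.5 and 48.8 and H3K27ac ranks of 71.0 and 68.1. Another lay in an intron of LSM4, about 29 kb before the JUND TSS, with H3K23su ranks of 38.6 and 55.9 and H3K27ac ranks of 71.5 and 63.8. The last lay near BEST2, about 41 kb before the JUNB TSS, with ranks of 38.7 or lower in both marks. The Pa-only pairs were in an intron of OVOL1 in the FOSL1 locus and in an intron of RTN2 in the FOSB locus, where the H3K27ac ranks were 65.1 and 63.7. All of these places except that of JUN lay nearer to the TSS of another gene, and the peak lists do not tie a region to the gene it acts on.

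Of the 18 FR-only H3K23su regions in the loci, 4 overlapped an FR-only H3K27ac region, 6 a shared one, and 3 no H3K27ac peak of any library, and the other 5 overlapped regions of 1 library or mixtures. The share with an FR-only H3K27ac partner was 35.8% over the genome. A Pa-only H3K27ac partner was found for 2 of the 7 Pa-only H3K23su regions, against 19.8%. None of these regions overlapped a region of the opposite class.

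**Figure D5:**
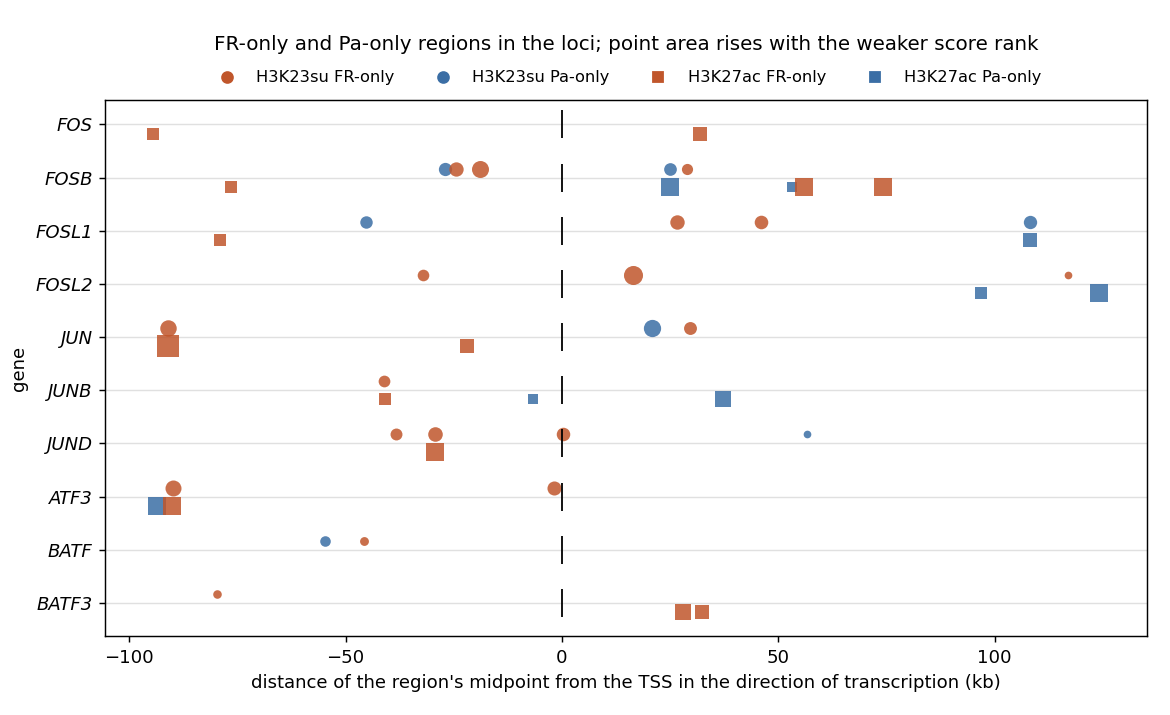
FR-only (orange) and Pa-only (blue) regions of H3K23su (circles) and H3K27ac (squares) in the loci of the 10 genes, by distance in kb from the TSS of the nearest AP-1 gene to the midpoint, with the area of each point rising with the lower of its 2 ranks. The JUN locus has FR-only regions of both marks about 91 kb upstream, and FOS has no H3K23su region of either class.

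The AP-1 core itself was searched for in the regions that differed and in the shared ones. It was found within 200 bp of the midpoint in 2 of the 18 FR-only H3K23su regions, against 21.0% of those in the genome, in 1 of the 7 Pa-only regions, against 11.7%, and in 10 of the 79 shared regions, against 13.9%. For H3K27ac the core was found in 3 of 13 FR-only regions, against 24.1%, and in 0 of 8 Pa-only regions, against 13.0%. Read over the whole region, more of the FR-only H3K23su regions held the core, so the count depends on the window. No share of the genome was computed for whole regions, so that rise cannot be set against a background. Without HCT15-Pa replicate 1, 6 FR-only H3K23su regions held it, since more regions then fall in the class. The 3 FR-only or Pa-only H3K23su regions with the core within 200 bp of the midpoint are shown. Each is a short stretch around the match nearest to the midpoint, on the plus strand of the genome, with the core in capitals.
FOSB, FR-only (chr19:45952220-45952340): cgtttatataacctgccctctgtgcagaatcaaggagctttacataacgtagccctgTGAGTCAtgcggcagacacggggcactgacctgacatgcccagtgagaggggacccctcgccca
FOSL1, FR-only (chr11:65621813-65621933): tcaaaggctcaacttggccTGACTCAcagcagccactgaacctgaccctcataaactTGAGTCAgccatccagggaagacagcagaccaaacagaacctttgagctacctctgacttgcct
BATF, Pa-only (chr14:75933940-75934060): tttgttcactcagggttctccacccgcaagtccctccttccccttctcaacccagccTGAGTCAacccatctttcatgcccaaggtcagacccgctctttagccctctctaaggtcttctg

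The FOSB region, chr19:45952193-45952562, was the strongest of the 3, with its midpoint 18876 bp before the TSS and H3K23su ranks of 56.6 and 94.3 in HCT15-FR. H3K27ac was present there at ranks of 78.6 and 73.2 in HCT15-FR and at 10.5 in HCT15-Pa replicate 1, and HCT15-Pa replicate 2 had no peak. About 1.5 kb closer to FOSB, a shared H3K27ac region centred 17395 bp before the TSS had ranks of 32.8 and 61.0 in HCT15-Pa and 85.1 and 93.5 in HCT15-FR. The FOSL1 region, chr11:65621663-65622101, held 2 copies of the core and lay 45977 bp past the TSS, nearer to the start of another gene, with ranks of 48.8 and 32.0 and no H3K27ac peak in any library. The BATF region, chr14:75933852-75934183, lay in an intron of JDP2, which encodes a bZIP repressor, with ranks of 14.9 and 73.9 in HCT15-Pa.

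Genes that work with AP-1 were read the same way near their TSSs, from 3 lists. Of 14 other bZIP genes of the AP-1 and ATF families, H3K23su length was higher in both HCT15-FR libraries for 6 and in both HCT15-Pa libraries for 1, and H3K27ac length for 8 and 1. Of 10 immediate early and serum response genes the counts were 7 and 0 for H3K23su and 6 and 1 for H3K27ac. Of 11 kinases and phosphatases of the pathways that act on AP-1 they were 6 and 0, and 3 and 0. The share of all genes higher in HCT15-FR was 28.7% for H3K23su and 23.1% for H3K27ac, which counts genes without a peak near the TSS. In the 3 lists, only 2 bZIP genes for H3K23su and 1 for H3K27ac had no peak there in any library. The 6 epithelial markers gave 4 and 3 in the same direction.

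Among the genes of the 3 lists that had more of both marks in HCT15-FR, DUSP5 and DUSP6, phosphatases that switch off ERK kinases, had the greatest summed difference. DUSP5 had 254 and 1186 bp of H3K23su in HCT15-Pa and 1989 and 1444 bp in HCT15-FR, and 1167 and 644 bp of H3K27ac against 1958 and 1925 bp. DUSP6 had 1058 and 1139 bp of H3K23su against 2081 and 1750 bp, and 2199 and 2320 bp of H3K27ac against 2892 and 3040 bp. The next was NR4A1, an immediate early nuclear receptor, with 675 and 312 bp of H3K23su in HCT15-Pa and 859 and 1723 bp in HCT15-FR. IER2, DUSP1 and EGR3, which are also immediate early genes, followed the same order in both marks. IER2 had 667 and 737 bp of H3K23su against 1355 and 1154 bp, DUSP1 609 and 1161 bp against 1596 and 1316 bp, and EGR3 401 and 326 bp against 940 and 1297 bp. H3K27ac covered 2188 and 1745 bp against 2640 and 2337 bp at NR4A1, and 1829 and 1910 bp against 2050 and 2032 bp at DUSP1. At EGR3 it covered 1057 and 1059 bp against 1218 and 1203 bp. IER2 had 1258 and 2052 bp of H3K27ac against 2206 and 2090 bp, so the nearest pair lay closer than the HCT15-Pa replicates.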

How the data were processed

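H3K23su and H3K27ac were profiled by CUT&Tag in HCT15-Pa and HCT15-FR cells, with 2 libraries per line and mark. Per the study's methods, the authors mapped the read pairs onto hg19 by Bowtie2 and filtered them with SAMtools, which left unique, proper pairs and removed duplicates. MACS2 was then run on every library by itself, in broad mode for H3K27ac. The submitters' processing notes also name HOMER 4.10 and deepTools. The deposited lists give each peak's position and a score, the −log10 of its P value. They carry no read counts, so depth is unknown from the files.

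Lengths covered by peaks were summed within 2 kb of the Ensembl canonical TSS (GENCODE release 44 on hg19, protein-coding genes; 281 of 20162 genes without one used the 5′ end of the gene record), in the gene body and within 100 kb of the gene. A gene was counted for a line when both of its libraries exceeded both of the other, and differences were tested with the two-sided exact permutation test. Overlaps needed 1 bp. Motifs were read from the hg19 sequence with pysam 0.24.0 and samtools 1.23.1 in Python 3.11.15, on both strands, within 200 bp of a region's midpoint. Calls were tested on simulated data. Alternatives covered list filters, windows, TSS choice, measures, region merging, each library left out and the replicate numbers as a block. All 10 genes are named, and of the other lists the 6 genes with the greatest summed difference among those higher in the same line in both marks. The genes, lists and tests were chosen with earlier results of these data known. The sequences shown for promoters and regions are those of hg19.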

Additional observations from a re-analysis of the deposited data

Results flagged for a closer look

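At FOS, the difference in covered length near the TSS between the lines had opposite signs in the 2 marks, at -340 bp for H3K23su and 708 bp for H3K27ac (HCT15-FR minus HCT15-Pa), and each was in the same direction in both libraries of a line. At FOSB the signs were reversed, at 219 bp for H3K23su and -309 bp for H3K27ac, where the lines were only 2 bp apart at their nearest. The difference between the marks was not tested. With the stronger 50% of the peaks of each list the H3K23su differences turned to 61.5 bp for FOS and -460.5 bp for FOSB, so that the signs in the 2 marks were then alike.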

How the results depend on the processing

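With 2 libraries per line no difference could pass the exact permutation test, so the values here show only whether an order held. In all, 830 alternative values were computed for 62 results. Among the alternatives, shares of all genes were computed only for length divided by the library total and for rank near the TSS. The other alternative counts have no share of all genes or regions beside them. Whether their changes are particular to these genes is therefore unknown. With lists cut to equal length and with a common minimum score, no count of genes or regions moved by over 1.5 times. With the replicate numbers as a replicate block, the genes with more locus length in HCT15-FR stayed at 9 for H3K23su and 8 for H3K27ac, and the shared regions ranked higher in HCT15-FR and HCT15-Pa numbered 38 and 10 for H3K23su and 36 and 36 for H3K27ac. The labels do not say that a replicate number marks a shared culture or day.

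With the stronger 50% of each list, 2 genes had an H3K23su peak near the TSS in every library, 3 had more H3K23su there in HCT15-FR and 0 in HCT15-Pa. The differences (HCT15-FR minus HCT15-Pa) turned to 61.5 bp for FOS, -460.5 bp for FOSB, -194 bp for FOSL2 and -133 bp for ATF3. In the loci, 3 H3K23su regions were then Pa-only, 0 of them with a Pa-only H3K27ac partner, 2 FR-only regions had an FR-only H3K27ac partner, 1 held the AP-1 core, and 13 shared regions ranked higher in HCT15-FR and 2 in HCT15-Pa.

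By the 5′ end of the gene record, 2 genes had more H3K23su in HCT15-Pa and ATF3 turned to -189 bp for H3K23su and -89.5 bp for H3K27ac. For H3K27ac, 2 genes were higher in HCT15-Pa with the TSSs of all protein-coding transcripts and also within 1 kb of the TSS, where JUN turned to -160 bp. As a share of the covered length of the library (bp per Mb), 5 genes had more H3K27ac near the TSS in HCT15-Pa, and FOSL1 turned to -6.17 and JUN to -6.50. In the loci, 1 gene was higher in HCT15-Pa for H3K23su, and for H3K27ac 3 were higher in HCT15-FR and 2 in HCT15-Pa. On that scale the H3K23su locus turned to -3.41 for FOS, -19.9 for FOSB, -1.40 for JUN and -25.4 for BATF, and the H3K27ac locus to -61.6 for FOSB, -6.37 for FOSL1, -31.1 for FOSL2 and -8.10 for JUNB.

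By the rank of the best peak, 2 genes were higher near the TSS in HCT15-FR for H3K23su and 5 in HCT15-Pa for H3K27ac. The rank differences near the TSS were -2.44 points for FOSB, -27.7 for FOSL2, -1.15 for JUND and -21.0 for ATF3 in H3K23su, and -2.66 for FOS, -3.19 for JUND and -6.64 for ATF3 in H3K27ac. In the loci, 3 genes were higher in HCT15-FR for H3K23su, and for H3K27ac 4 in HCT15-FR and 2 in HCT15-Pa. The locus differences turned to -0.65 for FOSL2 and -3.22 for JUND in H3K23su, and to -0.18 for FOS, -1.04 for FOSL2 and -6.85 for BATF3 in H3K27ac. By the number of peaks near the TSS, 2 genes were higher in HCT15-FR and 0 in HCT15-Pa for H3K23su, 0 were higher in HCT15-FR for H3K27ac, and FOS turned to -1 and FOSB to 0.5 peaks. In the loci, 5 genes had more H3K23su peaks in HCT15-FR and 1 more H3K27ac peaks in HCT15-Pa, with -1 peak for FOSB in H3K23su and -4 for FOSL2 in H3K27ac.

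Within 50 kb of the gene, 1 gene had more H3K27ac in HCT15-Pa (FOSB, -1290 bp). There were 4 Pa-only H3K23su regions, 1 with a Pa-only H3K27ac partner and 0 with the AP-1 core, 8 FR-only and 4 Pa-only H3K27ac regions, and 18 H3K23su and 21 H3K27ac shared regions ranked higher in HCT15-FR. With peaks merged across short gaps, 1 Pa-only region had a Pa-only partner. Where a peak had to cover 50% of a region, 22 H3K27ac regions were FR-only and 5 Pa-only, 8 FR-only H3K23su regions had an FR-only partner and 4 held the core, 0 Pa-only regions had a Pa-only partner and 0 held the core, and 16 shared H3K23su regions ranked higher in HCT15-FR and 3 in HCT15-Pa. Of regions with a member's TSS nearest, 8 H3K23su regions were FR-only, 1 with an FR-only partner and 1 with the core, and 1 was Pa-only, with 0 partners and 0 cores. Those of H3K27ac were 5 and 1, and the shared regions that ranked higher in HCT15-FR and HCT15-Pa were 9 and 4 for H3K23su and 15 and 15 for H3K27ac. Within 100 bp of the midpoint, 1 FR-only H3K23su region held the core, and over the whole region 4 did.

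Leaving out a library eases the rule for a class, so counts are larger by construction. FR-only H3K23su regions then numbered 30 to 45, most without HCT15-FR replicate 2, with 3 to 9 FR-only partners and 4 to 6 cores. Pa-only H3K23su regions numbered 8 to 28, most without HCT15-Pa replicate 1, with 2 to 5 partners and 1 to 3 cores. FR-only H3K27ac regions numbered 18 to 42 and Pa-only ones 9 to 28, and shared H3K23su regions ranked higher in HCT15-FR numbered 41 to 51 and in HCT15-Pa 12 to 22. Genes with more H3K27ac near the TSS numbered 3 to 5 in HCT15-FR and 2 to 3 in HCT15-Pa, and 0 to 1 had more in the locus in HCT15-Pa. H3K27ac differences ranged from -274.5 to 143.5 bp near the TSS of BATF, from -355 to 1808 bp in its locus and from -111 to 194 bp near the TSS of FOSL1. The cause of these differences was not tested.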
